A study of Mus musculus with 21 samples.

Results

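The comparison described here is that of FVF- cells of the mouse embryonic pancreas at E14.5 with FVF- cells at E13.5, the days around which acinar and endocrine differentiation of the pancreas accelerates. FVF stands for Foxa2-Venus fusion: Foxa2, a pioneer factor made by endoderm and its epithelial derivatives, carries the fluorophore Venus, and FVF- cells are the pancreatic cells sorted without it. The step holds 5 of the 21 arrays of the series, 2 from E13.5 (replicates 1 and 2) and 3 from E14.5 (replicates 1 to 3). These 5 arrays were chosen by their labelled sort and day, and all 19296 named genes of the table were tested. All samples came from a mixed strain background (C57-Bl6/SV129/CD1), and the labels name no further allele, treatment or agent. The other groups used for comparison were FVF+ cells at E13.5 (2 arrays) and E14.5 (3 arrays) and FVF- cells at E12.5 (2 arrays) and E15.5 (3 arrays). The replicates are labelled as biological, but the embryos or litters behind each are not named, so that p-values measure only how far these samples spread, which may be technical. Levels are log2 signals of an Affymetrix array, given below in replicate order, and differences are E14.5 minus E13.5 on the log2 scale, on which 1 is a 2-fold change.

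FVF- cells are a mixture. The pancreatic mesenchyme surrounds the branching epithelium, sends it FGF, Wnt and retinoic acid signals and lays down collagens, elastic fibres and proteoglycans. Blood vessels, blood cells, macrophages, neural crest cells and the mesothelial cover of the organ lie within or around it. In bulk samples of this kind a change in the share of a cell type and a change in the RNA per cell cannot be told apart.

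The labelled sort was checked against cell type markers. Foxa2 is given for FVF- cells only, so its values compare the days and do not check the sort. Foxa2 read 8.11 and 8.20 at E13.5 and 8.48, 8.05 and 8.89 at E14.5, a difference of 0.32 ± 0.20 (SE) that did not pass the test (limma, adjusted p = 0.335). The median of all values on the arrays was 8.74. The 8 mesenchyme markers, which include Pdgfra, Pdgfrb, Col3a1 and Dcn, averaged 12.95 and 12.94 at E13.5 and 12.94, 13.10 and 12.99 at E14.5, against 10.22 and 9.71 in FVF+ cells of those days. The marker means of endothelium, macrophages, mesothelium, smooth muscle and the red blood cell lineage were also higher in FVF- than in FVF+ cells at both days. The 6 pancreatic epithelium markers, among them Epcam, Cdh1, Pdx1 and Sox9, averaged 7.89 and 8.31 at E13.5 and 8.48, 7.82 and 9.58 at E14.5, against 12.44 and 12.33 in FVF+ cells. E14.5 replicate 3 stood highest of the 5 arrays in these epithelial markers. The same array was highest for the 4 acinar markers, which averaged 8.96 and 8.22 at E13.5 and 10.11, 9.42 and 11.16 at E14.5.

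**Figure D1:**
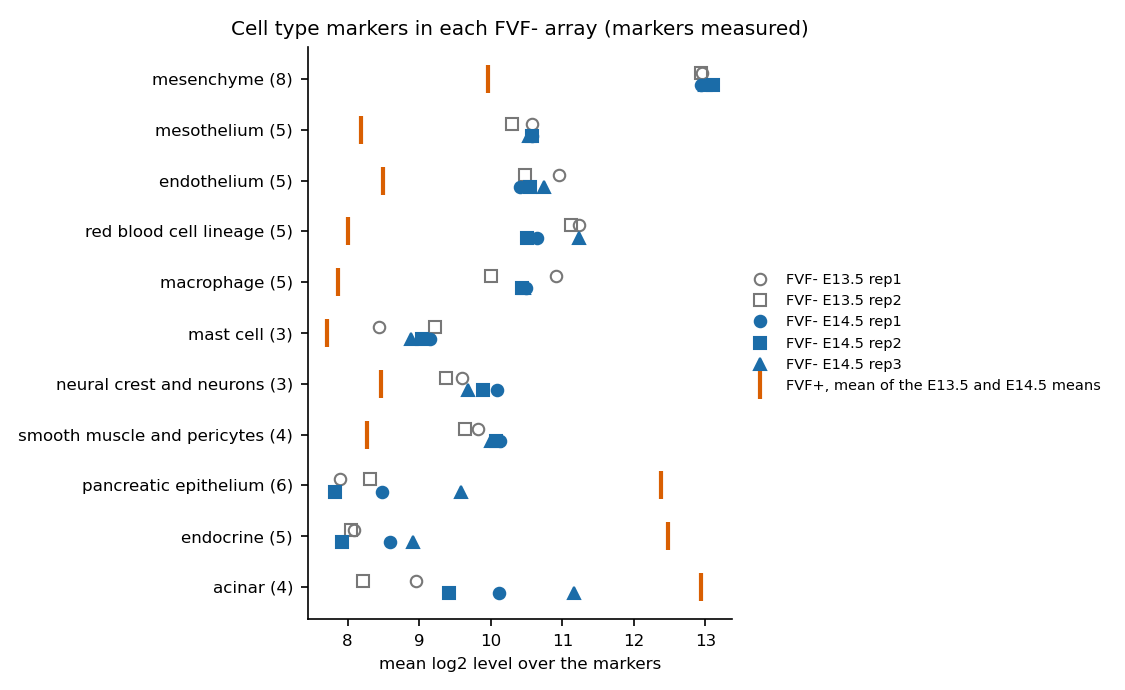
Mean log2 level over the markers of each cell type (horizontal axis) in the 5 FVF- arrays, with an orange bar for the mean of the 2 FVF+ group means. The mesenchyme markers lie close together at about the same level in all 5 arrays, whereas the epithelial, endocrine and acinar markers are spread, with E14.5 replicate 3 highest.

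Between E13.5 and E14.5, limma called 1602 of 19296 genes (8.3%), with a threshold of 0.05 on the adjusted p. Of these, 1096 rose (5.68%) and 506 fell (2.62%), and 165 changed at least 2-fold, 97 upward and 68 downward. The shares of 5.68% and 2.62% are those beside which the list counts below are to be read. The split depends on the scaling of the arrays: 772 rose and 630 fell after median centring, and 875 rose and 660 fell after quantile normalization. The median of all genes moved by 0.04. At an unadjusted p under 0.05 there were 5086 genes.

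The 5 arrays did not carry this number equally. Leaving out E13.5 replicate 2 left 33 calls (0.171%), of which 28 were among the 1602, with 1 array for E13.5 that is assumed to vary like the other groups. Without E13.5 replicate 1 there were 2894 calls (15%). Without E14.5 replicate 1 there were 423 (2.19%), without replicate 2 there were 1521 (7.88%), and without replicate 3 there were 2302 (11.9%). E13.5 replicate 2 and E14.5 replicate 1 stood at opposite ends of the first principal component of the 5 arrays, which held 59.2% of their variance, at -38.8 and 36.7. The other 3 arrays lay between -13 and 10.4. E13.5 replicate 2 is also the 1 of the 5 arrays whose label ends in a letter in place of a number, as do both FVF+ arrays of E13.5, and the sources used here do not explain the codes. A fit to the 5 arrays alone called 0 genes, with 3041 at an unadjusted p under 0.05, and a fit to the 10 FVF- arrays called 399. The counts and list medians below are from all arrays, and of the genes named below as called, only the 24 described next and Snord87 were also called without E13.5 replicate 2.

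**Figure D2:**
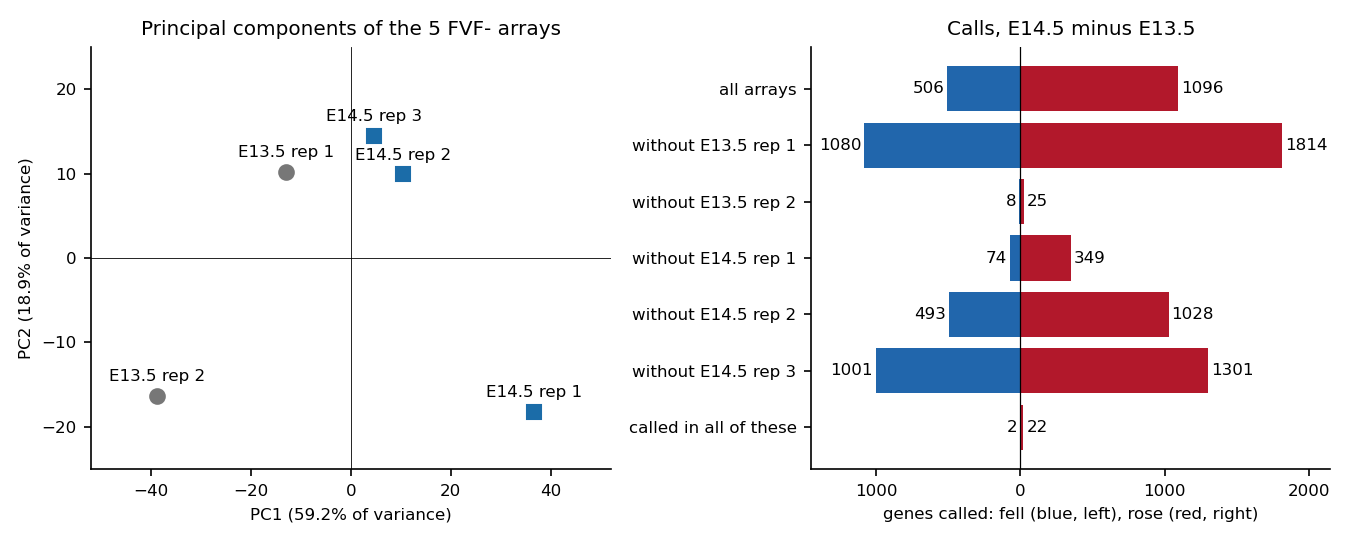
Left, the 5 FVF- arrays on their first 2 principal components. Right, the number of genes called as fallen (left bars) and risen (right bars) with all arrays and with 1 of the 5 left out, from 33 calls without E13.5 replicate 2 to 2894 without E13.5 replicate 1, and the 24 genes called in every one of these fits.

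24 genes (0.124%) were called with all arrays and with each of the 5 left out in turn. 22 of them rose. The gene with the lowest adjusted p was Mfap5, a microfibril-associated glycoprotein of elastic fibres. Its level was 7.64 and 7.59 at E13.5 and 9.82, 9.64 and 9.33 at E14.5. The days did not overlap, as the choice of genes named by size required. It rose by 1.98 ± 0.17 (SE, adjusted p = 2.85e-05). Further matrix genes of this set were Eln, which encodes elastin, Thbs2, a matricellular thrombospondin, Aebp1, a collagen-binding secreted protein, and Mmp17, a membrane-anchored matrix metalloprotease. Eln read 9.35 and 9.19 at E13.5 and 10.71, 10.66 and 10.31 at E14.5, a rise of 1.29 ± 0.15 (adjusted p = 0.000276). Thbs2 read 10.64 and 9.83, then 11.72, 12.52 and 11.77, a rise of 1.77 ± 0.21 (adjusted p = 0.000324). Aebp1 went from 11.07 and 10.72 to 11.94, 12 and 11.79, a rise of 1.01 ± 0.11. In each of these genes every E14.5 array was above both E13.5 arrays, but the set was chosen by calls from these same arrays.

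The other members that rose were Gdf10, a ligand of the TGF-beta family (by 1.09), Adgrd1, an adhesion G protein-coupled receptor (1.95), Anpep, the cell surface aminopeptidase N (0.92), Myh8, the perinatal myosin heavy chain (1.57), Phospho1, a phosphatase known from bone mineralisation (1.34), Cbfa2t3, a transcriptional corepressor (0.89), Tent5c, a poly(A) polymerase (1.08), and Rab7b, a small GTPase of endosomes (0.89). Ndrg2 rose by 1.20, Cracdl by 1.03, Wnk2, a kinase of ion transport, by 0.85, Plekhg3 by 0.81, Begain by 0.59 and Snora52, a small nucleolar RNA, by 0.97. Alas2, Cd74 and Ctrb1 are described with their groups. The 2 that fell were Hbb-bh1, an embryonic beta-like globin, and Snx31, a sorting nexin. Snx31 read 8.47 and 8.74 at E13.5 and 7.78, 7.56 and 7.37 at E14.5, a change of -1.03 ± 0.13 (adjusted p = 0.000565).

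**Figure D3:**
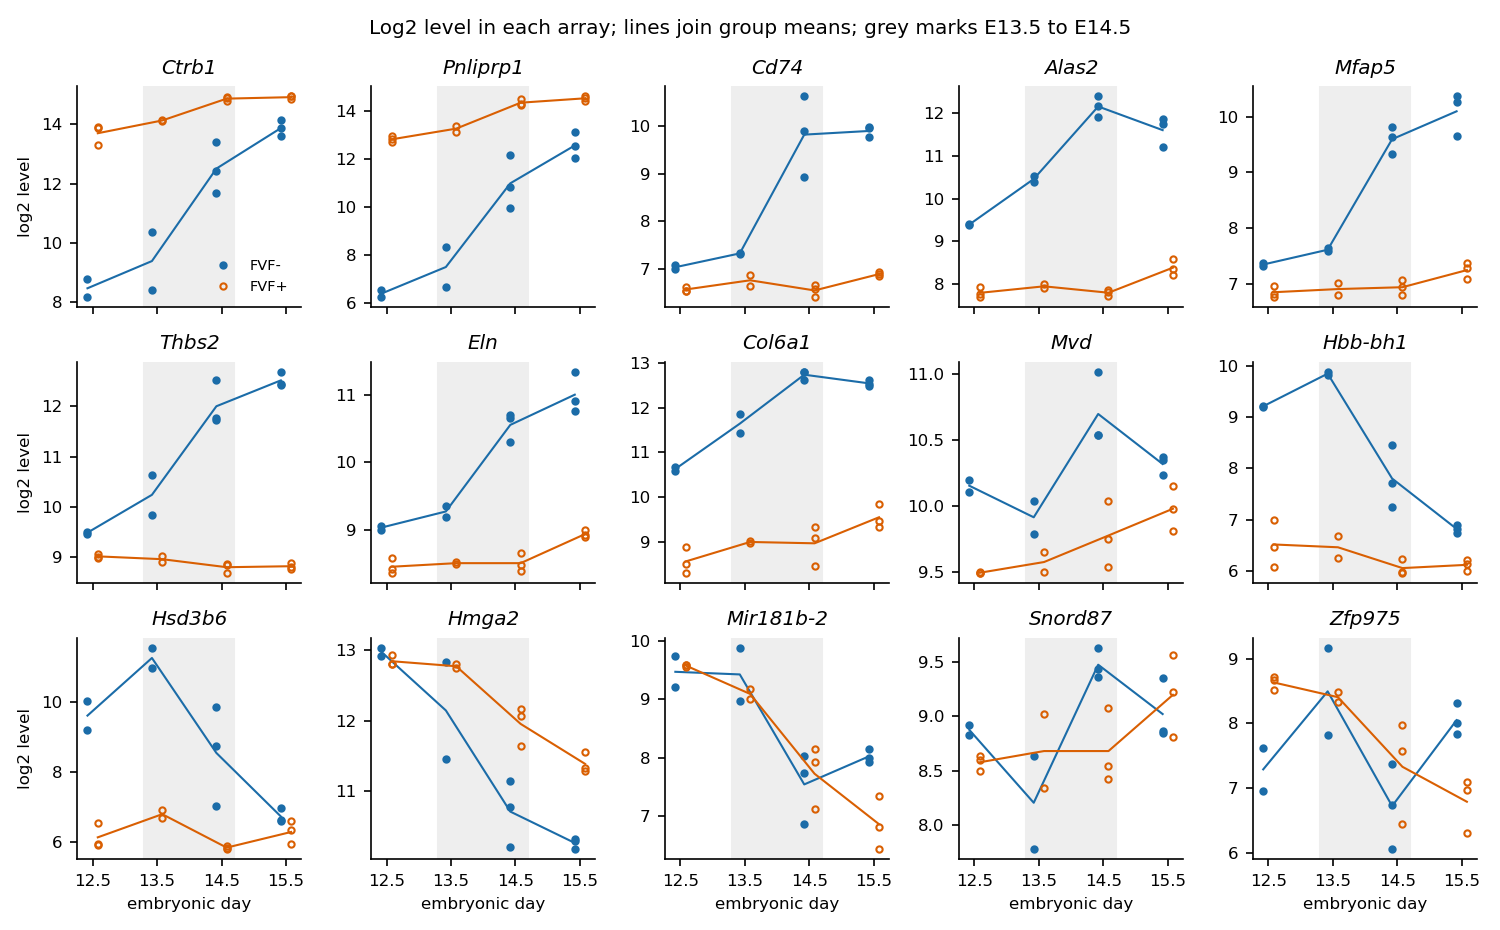
Log2 level of 15 genes in each array (points) by embryonic day, FVF- filled and FVF+ open, with lines through the group means. Mfap5, Thbs2, Eln and Col6a1 are higher at E14.5 than at E13.5 in FVF- cells, Hbb-bh1, Hsd3b6 and Hmga2 are lower, and Zfp975 and Snord87 change direction from day to day in FVF- cells.

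Genes of the extracellular matrix rose in several lists and fell in few. Of 29 measured genes of fibronectin, elastic fibres and crosslinking, 13 rose and 0 fell, with a median difference of 0.48 against 0.04 for all genes. Of 24 collagen chains 9 rose and 0 fell (median 0.43), and of 12 small leucine-rich proteoglycans 3 rose and 0 fell (median 0.33). In FVF+ cells the medians of these 3 lists were -0.25, -0.21 and -0.03. Without E13.5 replicate 2 the medians in FVF- cells were 0.43, 0.38 and 0.26, and 3, 0 and 0 members were called as risen.

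Among the collagens the largest rises were in Col6a1 and Col6a2, chains of the beaded-filament collagen VI, and in Col4a1 and Col4a2, the chains of the main collagen IV network of basement membranes. Col6a1 read 11.85 and 11.43 at E13.5 and 12.79, 12.80 and 12.62 at E14.5, a rise of 1.10 ± 0.21 (adjusted p = 0.00685). Col6a2 rose by 0.96, Col4a2 by 0.82 and Col4a1 by 0.71. Col5a1, Col5a3, Col8a2, Col16a1 and Col18a1 rose by 0.40 to 0.53. The fibril-forming Col1a1 read 13.44 and 13.24, then 13.85, 14.06 and 13.86, a difference of 0.58 that did not pass the test (adjusted p = 0.259), although all 3 E14.5 arrays were above both E13.5 arrays. Col12a1, with a difference of 0.74, and Col6a3, with 0.54, did not pass either (adjusted p = 0.0918 and 0.0923).

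In the elastic fibre list the rises beside Mfap5, Thbs2 and Eln were in Matn2, a matrilin (1.31), Emilin2, an elastin interface protein (1.04), Efemp1, a fibulin (0.93), the latent TGF-beta binding proteins Ltbp4 (0.66) and Ltbp3 (0.64), Fn1, fibronectin (0.61), Ecm1 (0.55), Loxl3, a lysyl oxidase (0.53), Fbln2 (0.51) and Fbln1 (0.48). Lox, the founding lysyl oxidase, read 11.96 and 11.36 at E13.5 and 12.19, 12.96 and 12.60 at E14.5, a difference of 0.92 that did not pass the test (adjusted p = 0.104). Loxl1 differed by 0.56 (adjusted p = 0.0599). The 3 proteoglycans that rose were Fmod, fibromodulin (0.98), Prelp (0.88) and Podn, podocan (0.84). Lum, lumican, differed by 0.85 and did not pass (adjusted p = 0.141). Dpt, dermatopontin, is in none of these lists and was among the largest rises of the step. It read 6.17 and 5.96, then 8.28, 7.76 and 7.37, a rise of 1.74 ± 0.30 (adjusted p = 0.00379).

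Of 31 genes of protein folding and secretion in the endoplasmic reticulum 7 rose and 0 fell (median 0.23). 5 of the 7 are known to act on collagen, a grouping made after their values were seen: P4ha2, a prolyl 4-hydroxylase subunit, read 9.86 and 9.01 at E13.5 and 10.68, 10.70 and 10.33 at E14.5 and rose by 1.14 ± 0.19 (adjusted p = 0.00305), and P3h1 (0.67), Plod1 (0.60), Plod3 (0.55) and Crtap (0.55) rose with it. The other 2 were Sdf2l1 (0.81) and Sec24d (0.49). Further members of the list that act on collagen, such as P4ha1, Plod2 and Serpinh1, were not among those called. In FVF+ cells 10 members of this list rose. Without E13.5 replicate 2 no member was called as risen, with a median of 0.18.

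Basement membrane and protease genes were mixed, and over all genes 5.68% rose and 2.62% fell. Of 25 basement membrane and integrin genes 3 rose, Itgb3 (0.65), Itga7 (0.62) and Lamb1 (0.46), and 2 fell, Itga8, an integrin of mesenchymal cells that binds nephronectin, and Lama1, a laminin chain of early epithelia (-0.50). Itga8 read 10.79 and 11.95 at E13.5 and 9.75, 10.10 and 10.03 at E14.5, a change of -1.41 ± 0.37 (adjusted p = 0.0301). Of 32 matrix proteases and inhibitors 4 rose, Adamts16 (1.21), Mmp23 (0.76), Adamts17 (0.59) and Adamts4 (0.46), and 0 fell, with a median of 0.07. None of these calls was made without E13.5 replicate 2.

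**Figure D4:**
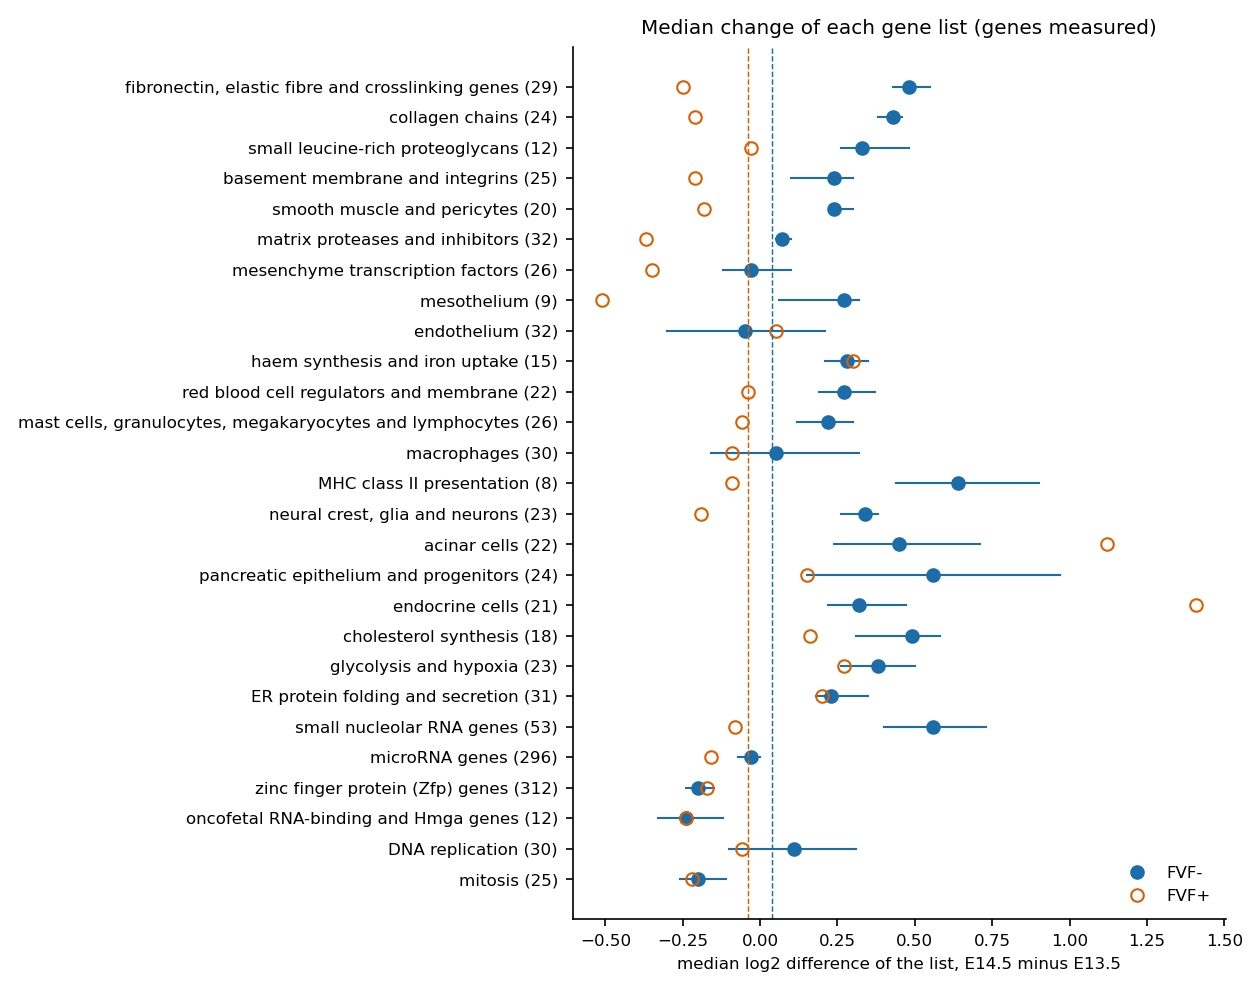
Median log2 difference, E14.5 minus E13.5, of 27 gene lists in FVF- cells (filled) and FVF+ cells (open), with the number of genes measured. Blue lines span the FVF- medians with each of the 5 arrays left out, and dashed lines mark the median of all genes in each sort. The collagen, elastic fibre and proteoglycan medians stay above 0.25 in FVF- cells in all of these fits, and those of the pancreatic epithelium run from 0.15 to 0.97.

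Of 26 transcription factors of the mesenchyme, 2 rose and 1 fell, with a median of -0.03. These counts are near the shares over all genes, of which 5.68% rose and 2.62% fell. Without E13.5 replicate 1, 3 rose and 2 fell, and without replicate 2 none was called and the median was 0.10. Snai1, a zinc finger repressor of epithelial genes, rose by 0.62 (adjusted p = 0.016), Gata6 rose by 0.43 and the homeobox gene Pbx3 fell by 0.45. Snai2 read 11.76 and 12.53 at E13.5 and 11.09, 10.97 and 11.59 at E14.5, a difference of -0.93 that did not pass the test (adjusted p = 0.0807). Of 37 Hox genes 0 were called by limma and 5 were lower at an unadjusted p under 0.05.

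Of 20 smooth muscle and pericyte genes, 3 rose and 1 fell (median 0.24), against 5.68% and 2.62% of all genes. Heyl, a Notch target of vascular smooth muscle, read 10.68 and 9.86, then 11.39, 11.46 and 10.96, and rose by 1.0 ± 0.19 (adjusted p = 0.00553). Smtn, smoothelin, rose by 0.85 and Cspg4, the pericyte proteoglycan NG2, by 0.75. The member that fell was Itga8, which is also in the integrin list. Acta2, smooth muscle actin, read 12 and 11.04 at E13.5 and 12.78, 12.47 and 12.38 at E14.5, a difference of 1.02 that did not pass the test (adjusted p = 0.0789). None of the 4 calls was made without E13.5 replicate 2, when the median was 0.26. Of 9 mesothelial genes 1 rose, Rspo1, a secreted enhancer of Wnt signalling (0.66), and 4 rose without E13.5 replicate 1 and 0 without replicate 2. Agtr2, the type 2 angiotensin receptor, was among the largest rises of the step, from 10.13 and 8.12 to 11.12, 11.92 and 11.27 (2.31 ± 0.38, adjusted p = 0.00282). The E13.5 arrays of Agtr2 lay far apart, and the call was lost without E13.5 replicate 2.

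Signalling genes were called in both directions. Over all genes 5.68% rose and 2.62% fell, and the calls in the Wnt, Hedgehog and FGF lists were near or below these shares. In the Wnt list, 4 of 46 genes rose and 1 fell (median 0.09): Wnt4, a ligand (1.01), Rspo1, and the feedback inhibitors Nkd1 (0.52) and Nkd2 (0.41) rose, and Lef1, a transcription factor of the pathway, fell from 10.19 and 10.59 to 10, 9.49 and 9.66 (-0.67, adjusted p = 0.021). In the TGF-beta and BMP list, 3 of 36 rose, Gdf10, Bmp6 (0.68) and Bambi, a decoy receptor (0.45), and 2 fell, the receptors Tgfbr1 (-0.69) and Bmpr1a (-0.65). In the Notch list, 3 of 22 rose, Heyl and the glycosyltransferases Lfng (0.61) and Rfng (0.42), and the coactivator Maml3 fell by 0.47. Of 18 retinoic acid genes 4 rose and 0 fell (median 0.22): Aldh1a2, the enzyme that makes retinoic acid in mesenchyme (0.86), Rarg, a receptor (0.71), Crabp1, a binding protein (0.71), and Dhrs3, a retinaldehyde reductase (0.70). Gli1, the transcriptional target and effector of Hedgehog signalling, rose by 0.57 as the 1 member called of 13, and Spry2, a feedback inhibitor of FGF signalling, rose by 0.54 as the 1 member called of 27.

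Gdf10 read 8.50 and 8.41 at E13.5 and 9.55, 9.73 and 9.37 at E14.5, and was the 1 member of these signalling lists still called without E13.5 replicate 2. Of 25 genes of the insulin-like growth factor axis and imprinted growth genes, 3 rose, all binding proteins: Igfbp7 (1.31), Igfbp2 (0.77) and Igfbp6 (0.64). The list's median was 0.00. Of 34 axon guidance genes 5 rose and 2 fell (median -0.12), against 5.68% and 2.62% of all genes. Sema3e, Sema3f, Sema4d and Sema3b, all semaphorins, rose by 0.51 to 0.59 and Ephb3 by 0.44. The Slit receptor Robo1 fell from 11.36 and 12.30 to 10.59, 11.11 and 10.99 (-0.93 ± 0.19, adjusted p = 0.0102), and Sema6a fell by 0.69. None of these was called without E13.5 replicate 2.

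Among red blood cell genes the embryonic globin Hbb-bh1 fell and Alas2 rose. Primitive erythrocytes from the yolk sac carry embryonic globins and are replaced in the circulation by definitive cells from the fetal liver. Hbb-bh1 read 9.88 and 9.81 at E13.5 and 7.72, 7.24 and 8.45 at E14.5, a fall of 2.04 on the log2 scale (SE 0.26, adjusted p = 0.000565). Its days did not overlap, as the choice of genes named by size required. The embryonic globins Hbb-y and Hba-x differed by -0.96 and -0.93 and did not pass the test (adjusted p = 0.457 and 0.282). E14.5 replicate 3, at 14.11 for Hbb-y and 13.57 for Hba-x, was above the other E14.5 arrays, which read 13.15 and 13.14 for Hbb-y and 12.45 and 12.46 for Hba-x. 4 of the 10 globin genes listed were measured by a probe set with that symbol alone.

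Of 15 genes of haem synthesis and iron uptake 3 rose and 0 fell (median 0.28), as 3 rose and 0 fell in FVF+ cells (median 0.30). The median of the 4 globins was -0.95 in both sorts. Alas2, the erythroid enzyme of the first step of haem synthesis, read 10.53 and 10.39 at E13.5 and 12.16, 11.91 and 12.40 at E14.5, a rise of 1.70 ± 0.17 (adjusted p = 7.41e-05). Slc25a37, the mitochondrial iron importer, rose by 0.96 and Fech, which inserts the iron, by 0.59. Of 22 red blood cell regulators and membrane genes 5 rose and 1 fell (median 0.27): Slc4a1, the band 3 anion exchanger (0.90), Rhd (0.78), Aqp1 (0.77), the spectrin Sptb (0.57) and Ank1 (0.40) rose, and Bcl11a, a repressor of embryonic globins, fell by 0.68 (adjusted p = 0.0488). Slc4a1 read 9.58 and 10.48 at E13.5 and 11.09, 10.36 and 11.33 at E14.5, so that its days overlapped. Without E13.5 replicate 2, Alas2 and Hbb-bh1 were still called and the others were not.

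The stretch before the Alas2 start holds a match to AGATAA, the motif bound by GATA factors of red blood cells, and is shown because Alas2 was the red cell gene that rose most. The sequence is from RefSeq (GRCm38.p6, chrX:150547307-150547416, plus strand, 110 bases up to the start), with the match in capitals, read on the opposite strand.
Alas2: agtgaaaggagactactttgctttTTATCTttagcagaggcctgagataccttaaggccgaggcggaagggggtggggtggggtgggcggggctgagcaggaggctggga
Searched on both strands in windows of 300 bases around the starts, AGATAA was in 11 of 45 windows (24.4%) of the red blood cell genes, and in 11.2% of all 32851 windows.

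In the list of mast cells, granulocytes, megakaryocytes and lymphocytes some genes rose. Of 26 measured 7 rose and 0 fell, with a median of 0.22, against 5.68% and 2.62% of all genes. Tpsb2, a mast cell tryptase, read 8.09 and 7.98 at E13.5 and 9.72, 9.56 and 8.43 at E14.5, a rise of 1.20 ± 0.24 (adjusted p = 0.00933). Hdc, the enzyme that makes histamine, rose by 1.10, Mpo, the neutrophil peroxidase, by 0.99, Il7r by 0.78, Rac2 by 0.70, Elane, neutrophil elastase, by 0.62 and Flt3 by 0.46. Cpa3, the mast cell carboxypeptidase, read 10.05 and 12.05 at E13.5, further apart than the E14.5 arrays at 11.87, 11.36 and 10.84. Kit read 9.79 and 9.89, then 9.91, 10.12 and 10.12, and Ms4a2 read 5.47 and 5.73, then 5.66, 5.65 and 5.67. Cpa3, Kit and Ms4a2, the mast cell markers measured, were not called. None of the 7 was called without E13.5 replicate 2, and the list's median was then 0.30. Of 30 macrophage genes 0 were called by limma, with a median of 0.05, and 5 had an unadjusted p under 0.05, 4 of them lower at E14.5. The macrophage median was 0.32 without E13.5 replicate 1 and -0.16 without replicate 2.

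Antigen presentation by MHC class II, a property of dendritic cells, B cells and some macrophages, was looked at as a list after its values were seen. All 8 measured members differed upward (median 0.64) and 4 rose. Cd74, the invariant chain that escorts class II molecules, read 7.33 and 7.32 at E13.5 and 10.63, 9.89 and 8.94 at E14.5, a rise of 2.50 ± 0.28 (adjusted p = 0.000276). H2-Aa went from 5.88 and 5.62 to 7.90, 7.11 and 6.46 (1.41), H2-Ab1 from 6.69 and 6.62 to 8.60, 7.86 and 7.22 (1.24), and H2-DMa rose by 0.74. In Cd74, H2-Aa, H2-Ab1 and H2-DMa alike, E14.5 replicate 1 was highest and replicate 3 lowest of the E14.5 arrays, and the days did not overlap. For Cd74 this separation was required by the choice of genes named by size. H2-Eb1 and H2-Oa differed by 0.54 and 0.30 and did not pass. Cd74 was still called without E13.5 replicate 2, and the other 3 were not.

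The promoters of this family share a Y box, here searched as CTGATTGG on both strands, which contains the reverse of a CCAAT box. It was in 4 of the 6 windows (66.7%) of list members and in 4.10% of all windows. H2-Aa is shown as the class II chain that rose most (chr17:34287824-34287933, minus strand, RefSeq GRCm38.p6), with the match in capitals.
H2-Aa: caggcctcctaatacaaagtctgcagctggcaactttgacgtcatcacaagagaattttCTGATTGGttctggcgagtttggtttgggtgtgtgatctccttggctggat

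Of 23 genes of neural crest, glia and neurons 6 rose and 0 fell (median 0.34). Prph, the intermediate filament peripherin of peripheral neurons, read 7.94 and 7.79 at E13.5 and 9.23, 9.01 and 8.42 at E14.5, a rise of 1.02 ± 0.17 (adjusted p = 0.00366). Gfra3, a receptor of the GDNF family (0.95), Phox2a, a transcription factor of autonomic neurons (0.79), Erbb3 (0.68), Sox10 (0.56) and Foxd3 (0.40), 3 genes of glia and crest precursors, rose as well. Gap43, a growth cone protein, read 11.44 and 11.90, then 10.95, 11.05 and 11.10, a difference of -0.64 that did not pass the test (adjusted p = 0.133). None of the 6 was called without E13.5 replicate 2, with a list median of 0.26.

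Among the genes named by size the largest rises were in acinar enzymes, in cells sorted without Foxa2-Venus. Pnliprp1, a pancreatic lipase-related protein, read 8.33 and 6.65 at E13.5 and 10.83, 9.95 and 12.18 at E14.5, a rise of 3.50 ± 0.48 (adjusted p = 0.000987). Ctrb1, chymotrypsinogen, went from 10.35 and 8.41 to 12.43, 11.69 and 13.40, a rise of 3.13 ± 0.44 (adjusted p = 0.00123). Clps, colipase (1.81), Cel, carboxyl ester lipase (1.56), Cpa1, carboxypeptidase A1 (1.10), and Gp2, a zymogen granule protein (0.36), completed the 6 of 22 that rose, and 0 fell, with a median of 0.45. The days did not overlap in Pnliprp1 and Ctrb1, as the choice of genes named by size required. In both genes E14.5 replicate 3 was highest and E13.5 replicate 2 lowest. FVF+ cells read 14.1 and 14.9 for Ctrb1 at the same days, near the top of the scale, which ends at 15.31. For Pnliprp1 FVF+ cells read 13.3 and 14.4. Without E13.5 replicate 2, Ctrb1 was still called and the list's median was 0.42. Without E14.5 replicate 3, 6 members were called and the median was 0.24.

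The pancreatic epithelial list followed the same array. Of its 24 genes 4 rose and 0 fell, with a median of 0.56. Krt19, a ductal keratin that mesothelium also carries, rose by 1.21, Krt8 by 0.72, Cldn3 by 0.71 and Foxa3 by 0.69. The mean over the list was 8.24 and 8.23 at E13.5 and 8.71, 8.14 and 9.53 at E14.5, against 11.71 and 11.80 in FVF+ cells. None was called without E13.5 replicate 2 (median 0.51). Without E14.5 replicate 3 the median was 0.15 and 1 member was called, and without E14.5 replicate 2, the lowest of that day, the median was 0.97 and 13 were called. Rbpjl, an acinar transcription factor, read 8.81, 8.52 and 11.67 at E14.5. Cdh1, E-cadherin, read 8.37 and 8.57 at E13.5 and 9.24, 8.49 and 10.60 at E14.5. Of 21 endocrine genes 0 were called in FVF- cells by limma (median 0.32), with 1 at an unadjusted p under 0.05, and 15 rose in FVF+ cells. The part of epithelial RNA in the rise of acinar genes was not tested.

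Serpina6, corticosteroid-binding globulin, also followed this order of arrays, at 8.67 and 7.83, then 10.77, 10.28 and 11.86 (2.72 ± 0.48, adjusted p = 0.00407), and lost its call without E13.5 replicate 2. Of 15 liver genes 1 rose, Vtn, vitronectin (1.12), while Ambp and Ttr differed by 1.14 and 0.57 and did not pass. Vtn was not called without E13.5 replicate 2.

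Steroidogenic and gonadal genes included the largest fall among the genes named by size. Hsd3b6, an enzyme of steroid synthesis, read 10.96 and 11.55 at E13.5 and 8.75, 7.02 and 9.86 at E14.5, a change of -2.71 ± 0.50 (adjusted p = 0.0052). The E14.5 arrays were far apart and all lay below both E13.5 arrays, as the choice of genes named by size required. The call was lost without E13.5 replicate 2 (-2.42, adjusted p = 0.130). Nr0b1, a nuclear receptor of adrenal and gonad, fell by 0.44, whereas Cyp11a1, the first enzyme of steroid synthesis (0.83), and Scarb1, the lipoprotein receptor (0.67), rose. Thus 2 of the 12 measured steroidogenic genes rose and 2 fell. Of 15 measured genes of kidney and gonad 1 rose and 2 fell. Lhx9, a homeobox gene of the gonad and mesothelium, went from 9.92 and 10.01 to 8.78, 8.98 and 9.03 (-1.03 ± 0.21, adjusted p = 0.00894), and Eya1 fell by 0.74, while Gata4 rose by 0.62. None of these was called without E13.5 replicate 2. Of 18 stomach, gut and spleen genes 0 were called by limma, with 1 at an unadjusted p under 0.05. Of 32 endothelial genes 1 fell, the arterial ephrin Efnb2 (-0.61), and 0 rose. The endothelial median was -0.05, and moved from 0.21 without E13.5 replicate 1 to -0.30 without E13.5 replicate 2.

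Of 18 measured genes of cholesterol synthesis 10 rose and 0 fell, 15 were higher without regard to the test, and 1 was lower at an unadjusted p under 0.05, with a median of 0.49 in FVF- cells and 0.16 in FVF+ cells. Mvd, mevalonate diphosphate decarboxylase, read 10.04 and 9.79 at E13.5 and 11.02, 10.54 and 10.54 at E14.5, a rise of 0.79 ± 0.15 (adjusted p = 0.00686). Dhcr7, which catalyses the last step (0.77), Mvk, mevalonate kinase (0.71), Fdps (0.69), Lss, lanosterol synthase (0.61), Msmo1 (0.61), Sqle, squalene epoxidase (0.57), Fdft1 (0.47) and Pmvk (0.31) rose, as did Srebf2, the transcription factor of the pathway (0.60). Srebf2 read 11.54 and 11.59, then 12.30, 12.13 and 12.07. Insig1, which holds that factor back when sterols are high, differed by 0.51 and did not pass (adjusted p = 0.123). Without E13.5 replicate 2 none was called, with a median of 0.31. The mean over the list was 10.38 at E12.5, 10.48 and 10.15 at E13.5, 10.71, 10.73 and 10.70 at E14.5 and 10.51 at E15.5, so that E13.5 replicate 2 lay below the other arrays and the day means.

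Promoters of this pathway are known to combine a sterol element with CCAAT boxes. CCAAT, searched on both strands, was in the windows of 14 of 14 members that had one, in 14 of their 17 windows (82.4%), and in 37.4% of all windows. A sterol element written TCACNCCAC was in 1 of the 17 windows (5.88%) and in 1.24% of all. The 110 bases before the start are shown for 4 genes that rose, with each CCAAT in capitals (ATTGG where it lies on the opposite strand), from RefSeq GRCm38.p6. Mvd is at chr8:122443423-122443532 (minus strand), Mvk at chr5:114444159-114444268 (plus), Lss at chr10:76531495-76531604 (plus) and Msmo1 at chr8:64733579-64733688 (minus).
Mvd: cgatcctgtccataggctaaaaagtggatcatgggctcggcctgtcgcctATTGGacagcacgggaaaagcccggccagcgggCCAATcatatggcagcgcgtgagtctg
Mvk: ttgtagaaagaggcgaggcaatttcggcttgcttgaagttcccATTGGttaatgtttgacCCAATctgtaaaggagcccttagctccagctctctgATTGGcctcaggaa
Lss: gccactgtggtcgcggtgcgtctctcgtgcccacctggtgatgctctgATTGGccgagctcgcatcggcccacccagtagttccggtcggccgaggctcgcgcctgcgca
Msmo1: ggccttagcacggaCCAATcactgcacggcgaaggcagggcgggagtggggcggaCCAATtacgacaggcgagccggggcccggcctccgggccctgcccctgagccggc
CCAAT is common near gene starts and a match is a description of the letters only.

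Glycolysis and hypoxia genes rose in a similar number. Of 23 measured 9 rose and 0 fell (median 0.38): Aldoc (0.96), Car9, a carbonic anhydrase induced by low oxygen (0.82), Hk1 (0.73), Egln3, an oxygen sensor (0.73), Ndrg1 (0.68), Pfkp (0.65), Ldha (0.54), Aldoa (0.52) and Hk2 (0.38). Aldoc read 8.60 and 8.02 at E13.5 and 9.57, 9.0 and 9.23 at E14.5. Aldoc and Car9 rose in FVF+ cells too, by 0.89 and 1.48. None was called in FVF- cells without E13.5 replicate 2 (median 0.26). Of 76 respiratory chain subunits 1 rose, Ndufa4 (0.46), and of 61 cytosolic ribosomal protein genes 0 were called by limma (median 0.03), with 4 at an unadjusted p under 0.05. Without E13.5 replicate 1 there were 18 rises in the respiratory chain and 10 among ribosomal protein genes, and without replicate 2 there were 0 in either. Among 24 immediate early and heat shock genes Egr1 rose, from 10.16 and 9.65 to 11.20, 11.88 and 11.16 (1.51 ± 0.45, adjusted p = 0.0468), while Fos and Fosb, with differences of 1.26 and 1.29, did not pass. Egr1 was not called without E13.5 replicate 2 (adjusted p = 0.376). Of 18 interferon response genes 3 rose, Ifitm3 (0.76), Irf1 (0.58) and Stat2 (0.52), and 0 fell. Of 29 chemokines and cytokines 1 rose, Ccl11, an eosinophil attractant (0.63). Of 27 ion channels 2 rose, among them Kcnk3 (0.92), and 1 fell, Ryr2 (-0.65). Over all genes 5.68% rose and 2.62% fell. None of these was called without E13.5 replicate 2.

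Among the genes that fell were Hmga2 and Sox11, both known from immature cells. Hmga2, a chromatin protein of fetal cells, read 11.45 and 12.84 at E13.5 and 10.77, 10.20 and 11.14 at E14.5, a change of -1.44 ± 0.29 (adjusted p = 0.00853). Sox11, a SoxC factor of immature cells, fell from 10.21 and 11.45 to 9.47, 9.80 and 9.97 (-1.08), which made 2 falls and 0 rises among 12 oncofetal genes (median -0.24). Igf2bp3 and Sox4 differed by -0.33 and -0.59 and did not pass. Further large falls were in Bves (-1.56), Fndc3c1 (-1.46), Kdm7a, a histone demethylase (-1.39), Strbp (-1.39), Calcrl, the adrenomedullin receptor of vessels (-1.33), and Slc40a1, the iron exporter ferroportin (-1.33). Genes named by size were taken only from called genes whose days did not overlap, so the separation of these falls was fixed by that choice. None of these genes was called without E13.5 replicate 2. Of 25 mitosis genes 0 were called by limma (median -0.20), with 7 at an unadjusted p under 0.05, all lower. Cenpe and Bub1 differed by -1.18 and -0.90. Without E13.5 replicate 1, 3 mitosis genes fell and 1 rose. Of 30 DNA replication genes 1 rose, Uhrf1 (0.52), against 8 without E13.5 replicate 1 and 0 without replicate 2.

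Of 312 genes named Zfp with a number, a list made after its values were seen, 46 fell and 8 rose, with a median of -0.20. Over all genes 2.62% fell. Zfp975 read 7.82 and 9.17 at E13.5 and 6.06, 6.74 and 7.37 at E14.5 (-1.77 ± 0.43, adjusted p = 0.0208). Zfp942 (-1.65), Zfp781 (-1.46) and Zfp935 (-1.23) followed, and Zfp575 (1.05), Zfp414 (0.53), Zfp395 (0.53) and Zfp469 (0.46) were the largest rises. In all 4 that fell E13.5 replicate 2 was the highest array. None of the 46 falls was called without that array, when the median was -0.15, and without E14.5 replicate 1 there were 4 falls and 1 rise. The list's mean was 9.04 at E12.5, 9.08 and 9.30 at E13.5, 8.81, 8.94 and 9.03 at E14.5 and 8.95 at E15.5, and in FVF+ cells it was 9.18 at E13.5 and 8.97 at E14.5. The list was taken by name. Some of its members are close paralogs, and a probe set may read more than 1 of those.

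Of 296 microRNA genes and their host transcripts, 14 fell and 0 rose, with a median of -0.03, against 2.62% and 5.68% of all genes. Without E13.5 replicate 1, 13 fell and 8 rose. In FVF+ cells 16 fell and 0 rose (median -0.16). A microRNA acts through its seed, bases 2 to 8 of the mature strand, and the probe sets read RNA of the gene or its hairpin, not the mature strand. The mature sequences below, from RefSeq, are those of members that fell and of miR-99a, which shares a seed with miR-100, with the seed in capitals. 269 of the 296 genes matched the sequence table.
mmu-miR-181a-5p: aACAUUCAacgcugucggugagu
mmu-miR-181b-5p: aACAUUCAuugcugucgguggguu
mmu-miR-100-5p: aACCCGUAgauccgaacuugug
mmu-miR-99a-5p: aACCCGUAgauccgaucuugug
mmu-miR-10a-5p: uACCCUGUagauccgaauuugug
mmu-miR-301a-3p: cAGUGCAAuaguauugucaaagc
mmu-miR-350-3p: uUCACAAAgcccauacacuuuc
mmu-miR-186-5p: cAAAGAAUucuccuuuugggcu
mmu-miR-708-5p: aAGGAGCUuacaaucuagcuggg
miR-181a and miR-181b share the seed ACAUUCA, and their hairpins Mir181a-2 and Mir181b-2 lie 1019 bases apart on chromosome 2. Mir181b-2 read 8.97 and 9.89 at E13.5 and 6.86, 7.73 and 8.03 at E14.5, a change of -1.89 ± 0.34 (adjusted p = 0.00465), and Mir181a-2 fell from 7.60 and 8.45 to 6.66, 7.03 and 6.89 (-1.17, adjusted p = 0.00404). The days did not overlap in either gene. Both also fell in FVF+ cells, by 1.37 and 0.80.

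miR-100 and miR-99a share the seed ACCCGUA. Mir100 read 6.56 and 8.01 at E13.5 and 5.56, 6.76 and 6.12 at E14.5, so that its days overlapped, with a change of -1.14 (adjusted p = 0.0496). Its host transcript Mir100hg fell by 1.06. Mir99a differed by -1.28 and did not pass the test (adjusted p = 0.0811), whereas its host Mir99ahg fell by 1.22 (adjusted p = 0.0466). Mir350 fell by 1.18, Mir186 by 1.13, Mir708 by 0.89, Mir301 by 0.83 and Mir10a by 0.36. Beside these and the host transcripts Mir100hg and Mir99ahg, which are counted among the 14, the members that fell were Mir674, Mir680-2, Mir680-3 and Mir693, by 0.31 to 0.66. None of the 14 was called without E13.5 replicate 2. Called then were 2 others, Mir376a (-1.42) and Mir376c (-1.08), which with all arrays differed by -0.48 and -0.34.

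Small nucleolar RNAs guide the modification of ribosomal RNA. Of 53 such genes 12 rose and 0 fell, with a median of 0.56 in FVF- cells and -0.08 in FVF+ cells. Snord33 read 9.13 and 9.68 at E13.5 and 11.10, 11.18 and 10.40 at E14.5 (1.49 ± 0.35, adjusted p = 0.0182). Snord35b (1.28), Snord49b (1.28) and Snord87 (1.27) rose by a similar size. The list's mean was 10.19 at E12.5, 9.88 and 9.73 at E13.5, 10.17, 10.59 and 10.45 at E14.5 and 10.10 at E15.5, so that both E13.5 arrays lay below the other FVF- days. Without E13.5 replicate 2, 2 members were called, Snora52 and Snord87, with a median of 0.40.

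Y-linked genes moved between the arrays. Of 4 measured genes of X inactivation and the Y chromosome 2 fell and 0 rose, with a median of -1.14. In FVF+ cells their median was -0.68, and 0 were called by limma. Eif2s3y read 10 and 10.36 at E13.5 and 8.02, 8.78 and 9.49 at E14.5 (-1.42, adjusted p = 0.0319), and Kdm5d fell by 1.12. Xist, expressed from the inactive X of female cells, read 11.79 and 12.90, then 11.04, 12.56 and 11.79 (-0.55, adjusted p = 0.438). None of them was called without E13.5 replicate 2, and the sources used here do not give the sexes of the embryos.

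FVF+ cells passed through the same step with 1707 calls (8.85%), 1134 rises and 573 falls among 19296 genes. In both sorts 199 genes rose, 12.4% of the FVF- calls and 11.7% of the FVF+ calls. 51 genes fell in both (3.18% and 2.99%). These percentages divide by all calls of a sort, in either direction. Of the 1134 FVF+ rises, 199 also rose in FVF- cells, where 5.68% of all genes rose. Of the 573 FVF+ falls, 51 also fell in FVF- cells, where 2.62% of all genes fell. The size of the overlap was not tested. In 15 genes a rise in FVF- cells met a fall in FVF+ cells, and in 6 the reverse. Both E13.5 arrays of FVF+ cells carry letter codes, so the code and the day cannot be told apart in that sort. Of the 24 genes called with each array left out, Anpep, Cbfa2t3 and Cracdl also rose in FVF+ cells, by 0.86, 0.76 and 1.10.

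The change differed between the sorts in 531 genes (2.75%), 316 with a larger value in FVF- cells and 215 with a larger value in FVF+ cells. Of the 1602 genes called in FVF- cells, 205 were among them: 180 rose with a positive difference and 23 fell with a negative one. The count was 314 without FVF- E13.5 replicate 2 and 160 without FVF+ E13.5 replicate 2. In Cd74 the FVF- change exceeded the FVF+ change by 2.71 ± 0.39 (adjusted p = 0.00137), with FVF+ cells at 6.76 and 6.55. In Pltp, a phospholipid transfer protein, FVF- cells rose by 0.94 and FVF+ cells fell by 1.45, a difference of 2.39 ± 0.23 (adjusted p = 5.14e-05). In Chrna4, a nicotinic receptor subunit, FVF- cells rose by 1.20 and FVF+ cells fell by 1.08 (difference 2.29 ± 0.26, adjusted p = 0.000184). Ctrb1 differed by 2.39, Slc2a2, a glucose transporter that fell in FVF+ cells, by 1.97, and Mfap5 by 1.95.

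The largest negative differences were in genes that rose in FVF+ cells. Try10 and Prss3, trypsinogens of a family whose probe sets may read one another, rose there by 4.37 and 3.38 and differed between sorts by -3.28 each, and the hormones Sst and Ins2 rose there by 3.29 and 3.00 (differences -3.18 and -2.61). In FVF- cells these 4 genes differed by 0.10 (Prss3) to 1.09 (Try10) and none was called. Clca3a1 and Clca3a2, close paralogs that a probe set may not tell apart, rose in FVF+ cells by 1.82 and 1.73. In FVF- cells Clca3a2 fell by 0.98 and Clca3a1 differed by -0.99 (adjusted p = 0.0867), with differences between sorts of -2.72 and -2.81.

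**Figure D5:**
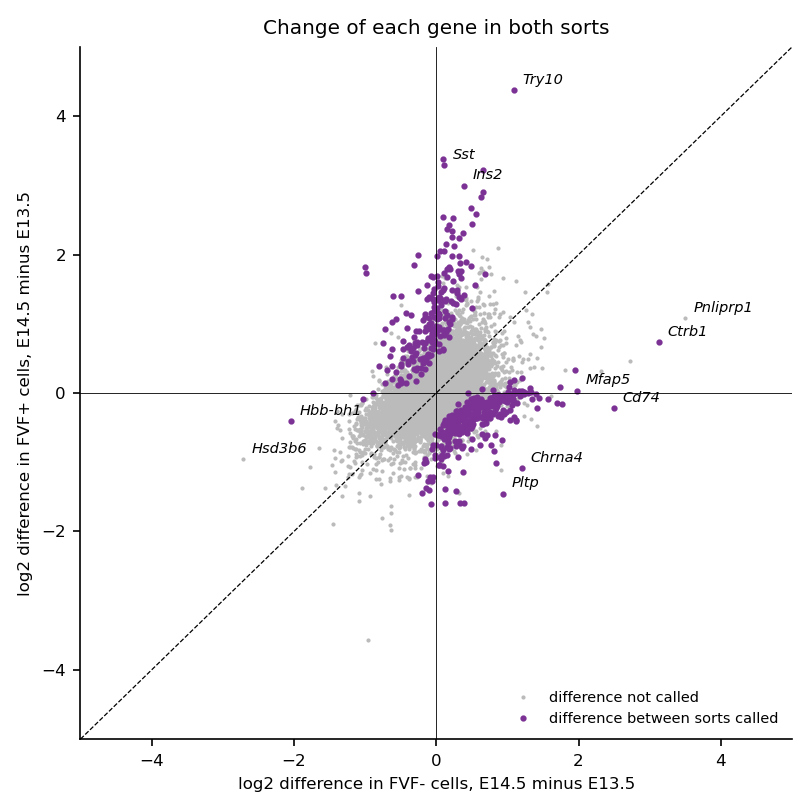
Log2 difference, E14.5 minus E13.5, of each gene in FVF- cells (horizontal) and FVF+ cells (vertical), with the 531 genes whose change differed between sorts in purple and a dashed line of equal change. Cd74, Mfap5 and Ctrb1 lie to the right, with changes of 2.50, 1.98 and 3.13 in FVF- cells, and Try10, Sst and Ins2 at the top.

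The neighbouring days of FVF- cells share arrays with this step, so their values are set beside it. From E12.5 to E13.5, 197 genes (1.02%) were called, and from E14.5 to E15.5, 1253 (6.49%). Mfap5 differed by 0.27, 1.98 and 0.50 over the 3 steps, Thbs2 by 0.76, 1.77 and 0.52, and Cd74 by 0.29, 2.50 and 0.08, with the middle step the 1 of the 3 called in each gene. Alas2 rose by 1.06 and 1.70 and then fell by 0.55. Hbb-bh1 differed by 0.64, -2.04 and -0.98 and Hsd3b6 by 1.65, -2.71 and -1.81, and in both genes the last pair of values was called. Hmga2 differed by -0.83, -1.44 and -0.45. Zfp975 differed by 1.21, -1.77 and 1.33, and Snord87 by -0.67, 1.27 and -0.45.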

How the data were processed

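RNA of sorted pancreas cells was hybridised to Affymetrix arrays after amplification with the Ambion WT Expression kit, per the labels' protocols. The deposited table holds log2 signals, made by the authors with RMA (affy 1.44.0), per the submitters' processing notes. It has 23305 probe sets, of which 20728 carry 1 gene symbol, 1174 several and 1403 none, and the probe set with the highest mean stood for a gene, which left 19296 genes. The number of arrays limits the precision.

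All 21 arrays were fitted in limma 3.58.1 (R 4.3.3) with 1 mean per sort and day, and p-values were adjusted by Benjamini-Hochberg over all genes, with calls at 0.05. The fit has 13 residual degrees of freedom. The script was tested on simulated data. Members and lists were chosen with earlier results of these data known, and the MHC class II and Zfp lists, like the 24 genes called without each array, were added after values were seen. Named were the 15 largest rises and falls among called genes whose days did not overlap (predicted, olfactory receptor, microRNA and small nucleolar RNA genes passed over), up to 4 called members per direction and 2 not called per list, the 6 largest differences between sorts in each direction, the largest microRNA and small nucleolar RNA changes, and Foxa2, 272 genes in all. Mir376a, Mir376c and a few list members outside this rule were named after their values were seen.

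Alternatives were other scalings, filters and probe set rules, array weights, a replicate block, a term for letter-coded arrays, fits to fewer arrays and each array left out.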

Additional observations from a re-analysis of the deposited data

Results flagged for a closer look

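The change from E13.5 to E14.5 differed between FVF- and FVF+ cells in 531 genes by limma's test of the difference (adjusted p under 0.05). The values that follow are the FVF- change minus the FVF+ change on the log2 scale. Among genes of the matrix and its cells it was 1.95 for Mfap5, 1.93 for Thbs2, 1.65 for Dpt, 1.29 for Eln, 1.17 for Mmp17, 1.11 for Gdf10 and 1.0 for Aebp1. It was 2.71 for Cd74, 2.39 for Pltp, 2.29 for Chrna4 and 1.97 for Slc2a2. For Ctrb1 it was 2.39, with FVF+ levels of 14.1 and 14.9 near the scale's end at 15.31, where a change may be compressed. It was 1.85 for Alas2, 1.66 for Myh8, 1.61 for Adgrd1, 1.32 for Phospho1, 1.04 for Wnk2, 1.01 for Rab7b, 0.99 for Ndrg2, 0.86 for Begain and 0.85 for Plekhg3. Negative values were found for Prss3 (-3.28), Try10 (-3.28), Sst (-3.18), Clca3a1 (-2.81), Clca3a2 (-2.72), Ins2 (-2.61), Hbb-bh1 (-1.64) and Snx31 (-0.94). Hbb-bh1 was already low in FVF+ cells, with means of 6.5 and then 6.06, where a fall may be compressed. The other embryonic globins went the other way, with larger falls in FVF+ cells. Mean Hbb-y went from 11.2 to 7.64 there, against 14.43 to 13.47 in FVF- cells. Mean Hba-x went from 9.87 to 8.38, against 13.8 to 12.83. The difference between sorts was called for neither.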

How the results depend on the processing

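The 1602 calls of the FVF- step (1096 rises, 506 falls) stayed within 1.5 times under median centring (1402), quantile normalization (1535), cyclic loess (1567), a filter on dim genes (1756), all probe sets (1575), their mean (1587) and an intensity trend with robust moderation (1432). There were 334 calls with array weights (279 rises, 55 falls), 33 with a term for letter-coded arrays (25 and 8), 399 in the FVF- arrays alone (330 and 69), 0 in the 5 arrays alone (0 and 0, with 3041 at an unadjusted p under 0.05), 0 in these with a replicate block (0 and 0, with 3392) and 165 at 2-fold or more (97 and 68). Leaving out 1 array gave 33 to 2894 calls, 25 to 1814 rises and 8 to 1080 falls. The letter term equals leaving out E13.5 replicate 2 for this step by construction. A replicate block over all arrays gave 2331 calls, 1361 rises and 970 falls, but the deviations of same-numbered arrays correlated by 0.119 and -0.0244, so the numbers are not shown to pair the samples.

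The 531 differences between sorts became 229 at 2-fold or more and 160 to 663 with 1 array left out. The 1707 FVF+ calls became 3366 with array weights, 127 with the letter term and 301 at 2-fold or more, and 1680 to 1982 with 1 FVF- array left out. From E12.5 to E13.5 the 197 calls became 119 with array weights, 413 with the letter term, 30 in the FVF- arrays, 61 at 2-fold or more and 72 to 413 with 1 array left out. From E14.5 to E15.5 the 1253 calls became 625 under cyclic loess, 123 in the FVF- arrays, 51 at 2-fold or more and 669 to 1502 with 1 array left out. The sign turned in 5 genes that were not called, which with 1 array left out ranged from -0.04 (without E13.5 replicate 1) to 0.27 for Cyp17a1, and, the first value being that without E13.5 replicate 2 and with the letter term, from -0.08 to 0.36 for Fdx1, from 0.12 to -0.72 for Nkx2-5, from 0.02 to -0.64 for Tlx1 and from 0.01 to -1.1 for Xist. Beyond the arrays left out and the fits to fewer arrays, whose construction removes samples, the cause was not tested. With 2 arrays at E13.5, all calls of the FVF- step rest on the spread borrowed from the other groups. In the 5 arrays alone the lowest adjusted p of limma was 0.203.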
